A study of Rattus norvegicus with 6 samples.

Results

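Heat shock proteins and chaperones are the proteins that fold new polypeptides and hold or refold damaged ones, and 32 rat genes of this kind were examined in the renal cortex: the cytosolic Hsp70, Hsp110 and Hsp90 families, their cochaperones, the small heat shock proteins, the mitochondrial chaperones, 4 subunits of the cytosolic chaperonin and the regulator Hsf1. A gene entered the set by its symbol, reached through the accession of a non-control probe on the array, and was represented by its probe with the highest mean signal over the 6 arrays. Of the 32 genes, 30 had a probe, and 29 of those passed the filter on dim probes, out of 31193 transcripts tested in all. Of these transcripts 12341 had a gene symbol, as every chaperone gene has. Shares and medians given for all transcripts also cover those without one. Hspa1b and Dnajb1 were matched to no probe, and Hspa1l was too dim to test. Not all of the set is cytosolic, since Hspa9, Hspd1 and Hspe1 encode mitochondrial proteins.

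The tested rats received carbon tetrachloride at 100 mg/kg/day for 4 weeks, and the comparison rats received corn oil for the same time, with 3 rats in each group and 1 single-colour Agilent array per rat. All were male Sprague-Dawley rats (Crl:CD(SD)), bought at 5 weeks of age and fed a basal diet. Carbon tetrachloride is best known as a liver toxicant, which acts through radicals formed from it by cytochrome P450. The series' design text names benzyl acetate as the treatment, but the series title and every other label give carbon tetrachloride, and that name is kept.

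As background, chaperone genes divide into constitutive ones, which serve protein folding in every cell, and inducible ones, which heat shock factor 1 switches on when unfolded proteins accumulate. Hsp70 proteins bind short unfolded stretches in a cycle that J-domain proteins start and Hsp110 proteins end, and Hsp90 then matures a narrower set of clients such as kinases and steroid receptors. In the kidney, small heat shock proteins are abundant where cells meet mechanical or osmotic load, and Hsp70 and Hsp27 are known to be induced in injured tubules.

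Of 61537 probes that are not controls, 68.5% to 72.1% per array exceeded background clearly. All 8 proximal tubule markers and all 6 markers of the loop, distal tubule and collecting duct were well above background on the 6 arrays. Slide 1 carried all corn oil arrays with treated replicates 1 and 2, and slide 2 carried treated replicate 3 alone. On slide 1 the treated arrays were in row 2 and the corn oil arrays in row 1, so the row and the treatment cannot be told apart there. Of the cell type markers, the 4 T cell genes well above background on every array (Cd3d, Cd3g, Cd8a and Cd8b) had log2 fold changes from -1.01 to -0.53. The other 3, Cd2, Cd3e and Cd5, were also lower but passed the filter through the corn oil group, where they are higher. Their part in the chaperone values was not tested. In such bulk samples, fewer cells of a type and less RNA per cell cannot be told apart.

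Signals are given as log2 of the processed spot signal relative to the 75th percentile of all probes on the same array, so a value of 1 is a signal 2-fold above that percentile. The levels of different probes depend on their sequences and are not compared with each other. A log2 fold change is the mean of the carbon tetrachloride arrays minus the mean of the corn oil arrays, with its standard error (SE) from limma, and adjusted p-values are those of limma with Benjamini-Hochberg adjustment over all 31193 transcripts.

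Inducible chaperone genes commonly carry heat shock elements, inverted repeats of GAA that bind trimers of heat shock factor 1. In RefSeq promoters of the build GRCr8, each 300 bases long (250 before the annotated start and 50 after it), GAANNTTCNNGAA or TTCNNGAANNTTC was found in 7 of the 26 members with an entry (26.9%), against 0.798% of 33469 promoters: Dnaja1, Cct4, Chordc1, Hsph1, Hspa8, Hspd1 and Hspe1, of which the divergent neighbours Hspd1 and Hspe1 share the same matches. These letters are the reverse complements of each other, so both strands were searched. Each contains the shorter patterns GAANNTTC and TTCNNGAA, which are their own reverse complements, and at least 1 of these shorter patterns was in 18 of the 26 members (69.2%) and in 15.9% of all promoters. The following stretches of 30 bases are shown, 1 for each gene with the longer match except Hspd1, and for Hspb1, the member with the smallest p, which had the shorter pattern. Each is written 5′ to 3′ on the gene's own strand, with the matched bases in capitals.
Dnaja1: ggccgggcgGAACTTTCCAGAAcgctcggt
Cct4: ggcgtcgctTTCTGGAAGGTTCgtggaggc
Chordc1: accgGAACGTTCGGGAAGATTCCTGAAgca
Hsph1: tgccgcagaTTCTGGAAAGTTCtcctcagt
Hspa8: ggcgagcgtGAAAGTTCCAGAAcgctgcgg
Hspe1: gctcggTTCTAGAACCTTCCGGAAggcccc
Hspb1: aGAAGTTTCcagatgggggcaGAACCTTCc

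The stretch of Dnaja1 lies at chr5:60638404-60638433 on the plus strand and covers bases 1 to 30 after the annotated start, that of Cct4 at chr14:101193073-101193102 (plus strand, bases 17 to 46 after the start) and that of Chordc1 at chr8:23650827-23650856 (plus strand, bases 7 to 36 after the start). The stretches of the other genes lie before the start: Hsph1 at chr12:10427323-10427352 (plus strand), Hspa8 at chr8:50080292-50080321 (plus strand), Hspe1 at chr9:64084256-64084285 (plus strand) and Hspb1 at chr12:26432402-26432431 (minus strand, 130 to 101 bases before the start). Chordc1 had 3 overlapping matches of the longer pattern, and Hspa8 had a second, separate match nearer its start that is not shown. Of the 7 tested members with the longer pattern, 5 were lower and 2 higher after carbon tetrachloride, with a median log2 fold change of -0.12, and of the 17 without it 9 were lower and 8 higher, with a median of -0.021. A match describes the letters in this window and is no measure of binding, nor does it set inducible genes apart from constitutive ones. The stress-inducible Hspa1a had neither pattern, and Bag3, Dnajb1 and Hspb1 had only the shorter. The constitutive Hspa8 had the longer, and Hsp90aa1 had no promoter entry.

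None of the 29 chaperone genes tested passed an adjusted p of 0.05, where 0.00321% of all transcripts did (1 of 31193). Their log2 fold changes were small, between -0.27 for Hspb8 and 0.58 for Cryab, with a median of -0.05 against 0.0077 for all transcripts. A 2-fold change in either direction was reached by 0 of the 29 genes and by 0.843% of all transcripts, and 16 of the 29 were lower (55.2%, against 47.7% of all transcripts). The median size of the change regardless of sign was 0.076 for the chaperone genes and 0.095 for all transcripts. At an unadjusted limma p under 0.05 there were 4 genes: Hspb1 was higher, and Dnaja1, Hsp90ab1 and Cct4 were lower. The same threshold held for 6.3% of all transcripts, or 3.67% higher and 2.63% lower. Of the 4 genes, Hspb1 alone stayed under 0.05 when treated replicate 1, corn oil replicate 2 or corn oil replicate 3 was left out, the last of which added Cryab. Hspb1 and Dnaja1 stayed without treated replicate 3 or corn oil replicate 1, the second of which added Hspb7. Hspb1 and Hsp90ab1 stayed without treated replicate 2, which added Hsp90aa1 and Hspb8. The treated and control arrays did not overlap for 6 of the 29 genes, with Hspb1 and Hspa9 higher and Dnaja1, Hsp90ab1, Cct2 and Cct4 lower, against 12.8% of all transcripts (7.55% higher and 5.28% lower).

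The arrays limit what could be seen. The 95% interval of the difference was taken on each gene's probe with the highest mean signal, unadjusted for the number of genes. On this probe it excluded a 2-fold change in either direction for 28 of the 29 genes, all but Cryab. It excluded a 1.5-fold change for 26, all but Hspb7, Hspb8 and Cryab. These counts do not cover other probes, and some had a larger SE, among them probes of Hspa8 (-0.64 ± 0.48), Hspa4 (0.023 ± 0.55) and Hspb2 (0.35 ± 0.47).

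**Figure D1:**
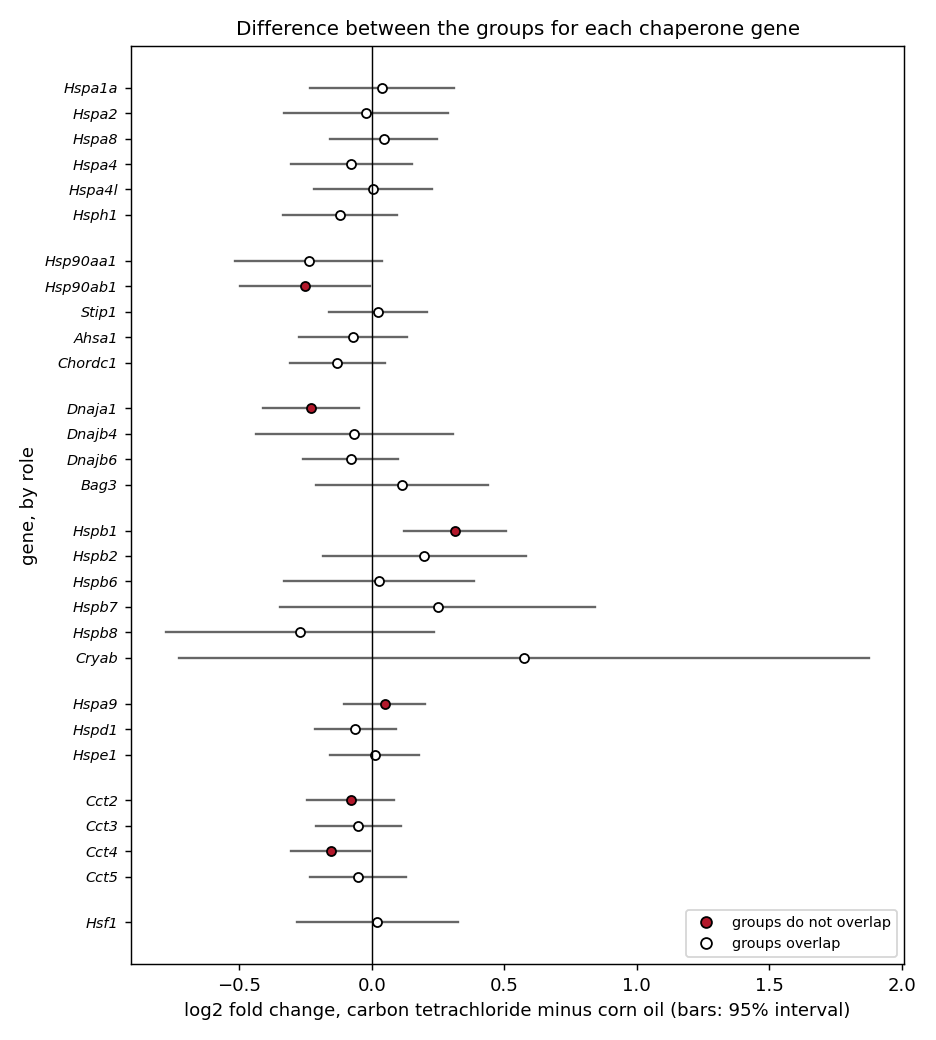
Log2 fold change of each tested chaperone gene, carbon tetrachloride minus corn oil (horizontal axis), with genes grouped by role down the page. Points are limma estimates, bars are 95% intervals, and filled points mark the 6 genes whose groups do not overlap. Most intervals cross 0, the interval of Cryab is the widest, and Hspb1 lies furthest from 0 relative to its interval.

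In the Hsp70 and Hsp110 family the 6 tested genes split evenly, 3 higher and 3 lower, with a median log2 fold change of -0.0073, and 0 had an unadjusted p under 0.05. Hspa1a encodes the main stress-inducible Hsp70, whose level is commonly read as a sign of proteotoxic stress. It had log2 signals of -2.28, -2.17 and -2.51 on the carbon tetrachloride arrays and of -2.46, -2.28 and -2.34 on the corn oil arrays. The highest and the lowest of the 6 values both came from treated rats, and the log2 fold change was 0.04 ± 0.11 (SE, n = 3 per group, adjusted p = 0.960), with a 95% interval from -0.23 to 0.31. The near-identical copy Hspa1b was matched to no probe, and whether the Hspa1a probe also binds its transcript was not tested.

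Hspa8 encodes the constitutive Hsc70, which also uncoats clathrin vesicles. Its log2 signals were 7.87, 8.08 and 7.93 after carbon tetrachloride and 7.86, 7.90 and 7.98 after corn oil. The groups overlapped, and the log2 fold change was 0.05 ± 0.08 (adjusted p = 0.929). Of its 8 tested probes 4 were higher and 4 lower, from -0.64 to 0.08, so its direction depends on the probe. Hspa8 has many processed copies in mammalian genomes, and signal of such copies cannot be separated here.

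Hsph1 encodes Hsp110, which exchanges the nucleotide of Hsp70 and is strongly heat-inducible. It had -0.42, -0.21 and -0.37 after carbon tetrachloride and -0.20, -0.31 and -0.13 after corn oil. Treated replicates 1 and 3 lay below every corn oil array, and replicate 2 lay among them, which gave a log2 fold change of -0.12 ± 0.09 (adjusted p = 0.836). Hspa4 and Hspa4l, the other Hsp110 genes, had -0.08 ± 0.09 and 0.0062 ± 0.09, and Hspa2, best known from male germ cells, had -0.021 ± 0.13. Hspa1l, a relative expressed mainly in testis, was well above background on 1 array of each group, with signals from -7.40 to -3.85 over the 6 arrays, and it was not tested.

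Both cytosolic Hsp90 genes had lower signals after carbon tetrachloride. Hsp90ab1, the constitutive form, had 5.29, 5.40 and 5.10 on the treated arrays, against 5.50, 5.45 and 5.60 on the corn oil arrays. Every treated value lay below every corn oil value, with a log2 fold change of -0.25 ± 0.10, a signal change of -16.0%, and a 95% interval of the log2 fold change from -0.50 to -0.0059 (adjusted p = 0.791). Hsp90aa1, the stress-inducible form, had 5.71, 5.90 and 5.56 on the treated arrays, against 5.96, 5.85 and 6.07. Treated replicate 2 lay above corn oil replicate 2, so the groups overlapped on this probe, and the log2 fold change was -0.24 ± 0.11 (adjusted p = 0.798).

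Further probes of these genes gave the same direction. All 6 probes of Hsp90aa1 were lower, from -0.38 to -0.24, and 4 of them had an unadjusted limma p under 0.05 and groups that did not overlap. Of all tested probes 6.40% had such a p, and of all transcripts 12.8% had groups without overlap. All 5 probes of Hsp90ab1 were lower, from -0.25 to -0.044, with 1 at an unadjusted p under 0.05. Probes of a gene share the same RNA samples and are not independent measurements. Carbon tetrachloride replicate 3, alone on slide 2, had the lowest value on most probes of both genes, among them the probe with the highest signal. On the remaining probes the lowest array was treated replicate 1 or 2 (2 probes of Hsp90aa1) or treated replicate 1 (2 probes of Hsp90ab1). The part of that slide or rat in these values was not tested. Within slide 1 the log2 fold changes were -0.15 for Hsp90aa1 and -0.17 for Hsp90ab1, with unadjusted limma p-values of 0.210 and 0.108.

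The cochaperones of Hsp90 were closer to 0. Chordc1, a Hsp90-binding protein, had -0.13 ± 0.07, with its second probe at -0.29 ± 0.12, Ahsa1, which stimulates the ATPase of Hsp90, had -0.07 ± 0.08, and Stip1, the adaptor that links Hsp70 to Hsp90, had 0.024 ± 0.08. Their limma adjusted p ran from 0.825 to 0.965. Over the 5 genes of this group 4 were lower, with a median of -0.13.

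**Figure D2:**
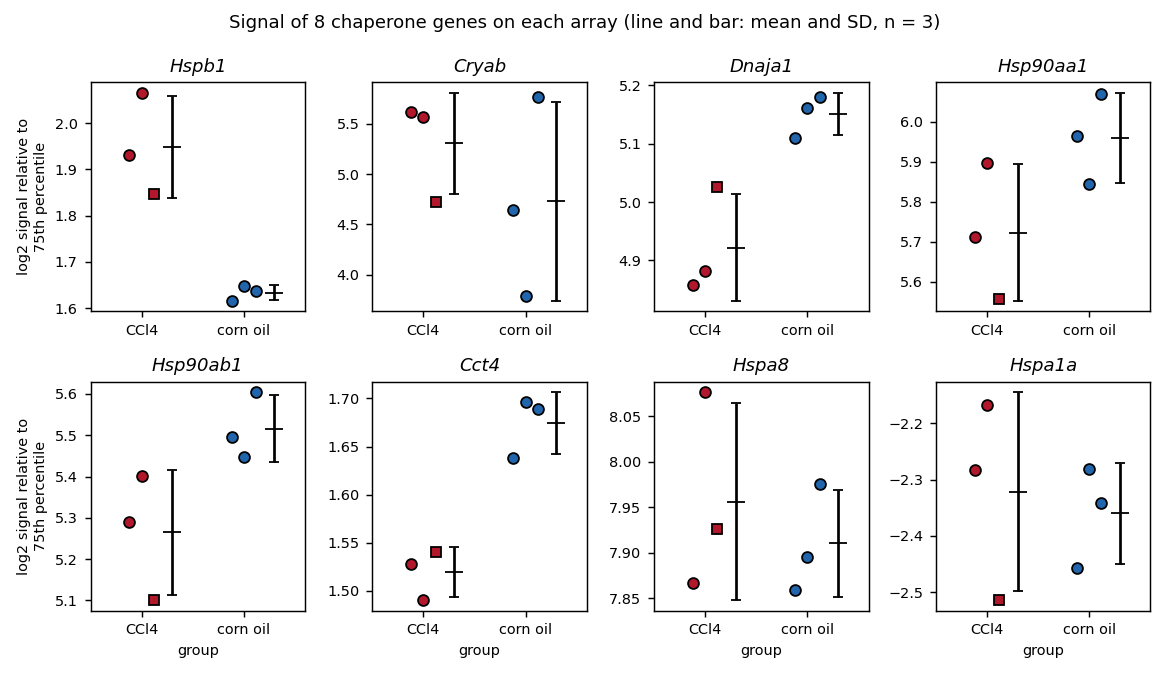
Log2 signal relative to the array's 75th percentile for 8 chaperone genes, with carbon tetrachloride (CCl4) left and corn oil right in each panel, each panel on its own axis. Points are arrays, the square is carbon tetrachloride replicate 3 on slide 2, and the line with its bar is the mean and SD of 3 arrays. Hspb1 is higher and Dnaja1, Hsp90ab1 and Cct4 are lower on all 3 treated arrays, while the groups overlap for Cryab, Hsp90aa1, Hspa8 and Hspa1a.

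Of the J-domain proteins, which deliver clients to Hsp70 and start its ATPase, Dnaja1 differed most. It had log2 signals of 4.86, 4.88 and 5.03 after carbon tetrachloride and of 5.11, 5.16 and 5.18 after corn oil. The treated values all lay below the corn oil values, with a log2 fold change of -0.23 ± 0.07, a signal change of -14.7%, and a 95% interval of the log2 fold change from -0.41 to -0.05 (limma adjusted p = 0.768). Within slide 1 the difference was -0.28. Dnajb4 had -0.07 ± 0.15. Dnajb6, a suppressor of protein aggregation, had -0.08 ± 0.07, while its other probes were higher, at 0.058 and 0.062. Bag3, which pairs with Hspb8 to send damaged proteins to autophagy, had 3.74, 3.58 and 4.06 after carbon tetrachloride and 3.61, 3.75 and 3.68 after corn oil. Treated replicate 3 stood above the other 5 arrays, and the log2 fold change of Bag3 was 0.11 ± 0.13 overall and -0.020 within slide 1.

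Small heat shock proteins, which hold unfolding proteins without using ATP and bind actin and intermediate filaments, had log2 fold changes above 0 for 5 of 6 genes, with a median of 0.22. Of these, Hspb7 passed the filter through the carbon tetrachloride group only, and Hspb6 changed sign when single arrays were left out. Over the 5 genes well above background on every array, 4 were above 0, with a median of 0.20. Hspb1, which encodes Hsp27, had 1.93, 2.07 and 1.85 on the treated arrays, against 1.62, 1.65 and 1.64 on the corn oil arrays. The corn oil rats were close to each other and every treated rat lay above them, giving 1.95 ± 0.11 against 1.63 ± 0.016 (SD, n = 3). The log2 fold change of 0.31 ± 0.08 corresponds to 24.4% more signal (95% interval 8.87% to 42.1%), with an unadjusted limma p of 0.00712 and an adjusted p of 0.724. It stayed between 0.26 and 0.36 over the alternatives, at an unadjusted p under 0.05 in all 19, and was 0.36 within slide 1.

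Cryab, which encodes alpha B-crystallin, varied most between rats. It had 5.62, 5.57 and 4.72 after carbon tetrachloride and 4.64, 3.79 and 5.76 after corn oil. The corn oil group alone spanned its lowest and its highest value, and the groups overlapped, with a log2 fold change of 0.58 ± 0.53 (adjusted p = 0.858) and a 95% interval from -0.73 to 1.88. Without corn oil replicate 2 it was 0.10, and without corn oil replicate 3 it was 1.09 (limma adjusted p = 0.650). The other values without 1 array lay between these.

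Slc12a1, the sodium transporter of the thick ascending limb, had 5.21, 4.81 and 4.71 on the treated arrays and 4.60, 4.49 and 5.28 on the corn oil arrays. These put the 6 arrays in the same order as Cryab did, from corn oil replicate 3 at the top to corn oil replicate 2 at the bottom, an order noticed after the values were seen, with Slc12a1 picked from 6 markers for it. Umod, also of the thick ascending limb, shared it in part. It was lowest on corn oil replicate 2 (8.40) and highest on treated replicate 1 (8.99) and corn oil replicate 3 (8.94), but treated replicate 2 (8.41) was next to lowest. Markers of other segments did not share it: Aqp2 and Calb1, of the collecting duct and distal tubule, were highest on corn oil replicate 2, and Slc12a3, of the distal tubule, on corn oil replicate 1. Atp6v1b1, the remaining marker of the list, was highest on treated replicate 1 (3.85) and lowest on treated replicate 2 (3.48). The whole list of loop, distal tubule and collecting duct markers, 6 of 6 tested, had a summed signal of 474 to 678 times the 75th percentile on the treated arrays. On the corn oil arrays it was 500 to 644 times. Most of that sum came from Umod, whose probe had the highest signal of these markers on every array. The part of these markers in the spread of Cryab was not tested.

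Hspb2, whose gene lies beside Cryab in a divergent pair, had 2.04, 1.83 and 1.83 after carbon tetrachloride and 1.75, 1.40 and 1.96 after corn oil. Its lowest value was on the same array as that of Cryab, corn oil replicate 2, and its log2 fold change was 0.20 ± 0.16, with the second probe at 0.35 ± 0.47. Hspb6, known from smooth muscle relaxation, had 0.027 ± 0.15, Hspb7, known from heart and muscle, 0.25 ± 0.24, and Hspb8, the partner of Bag3, -0.27 ± 0.21. Without single arrays the log2 fold change of Hspb2 ran from 0.047 (without corn oil replicate 2) to 0.32 (without corn oil replicate 3). That of Hspb7 ran from 0.0039 (without corn oil replicate 3) to 0.50 (without corn oil replicate 1). That of Hspb8 ran from -0.46 (without treated replicate 2) to -0.13 (without corn oil replicate 3). Hspb7 was dim: it was well above background on 3 treated arrays and on 1 corn oil array, so it entered the test through the treated group. Adjusted limma p-values for Hspb2, Hspb6, Hspb7 and Hspb8 lay between 0.841 and 0.983.

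Several small heat shock proteins are also muscle proteins, so muscle markers are given beside them. The 9 smooth and skeletal muscle markers tested had a summed signal of 4.29 to 4.52 times the 75th percentile on the treated arrays. On the corn oil arrays it was 3.50 to 4.07 times, without overlap, and 12.8% of all transcripts had groups without overlap. Of the markers, 6 were higher, 3 lower and 0 at an unadjusted limma p under 0.05. Among the 6, Cnn1 passed the filter through the treated group only, and 5 of the 8 markers well above background on every array were higher. The higher markers were Acta2, Tagln, Myh11 and Cnn1 of smooth muscle, Des of both kinds, and Mb, from 0.10 for Mb to 0.40 for Cnn1. The 3 lower were Myh4, Acta1 and Ckm of skeletal muscle, from -0.49 for Ckm to -0.07 for Myh4. Their mean log2 signals on the corn oil arrays were -5.32 for Myh4, -3.79 for Acta1 and -3.86 for Ckm, so they weigh little in the summed signal. Of the defining genes, Myh11 of smooth muscle had a log2 fold change of 0.26 ± 0.14, and Myh4 of skeletal muscle -0.07 ± 0.09. Podocyte markers, 4 of 4 tested, all had higher values, with summed signals of 28.9 to 32.02 on the treated arrays and 24.3 to 31.9 on the corn oil arrays. Of these markers, 1 had an unadjusted limma p under 0.05, against 6.3% of all transcripts. The part of either cell type in the values of Hspb1 and its relatives was not tested.

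**Figure D3:**
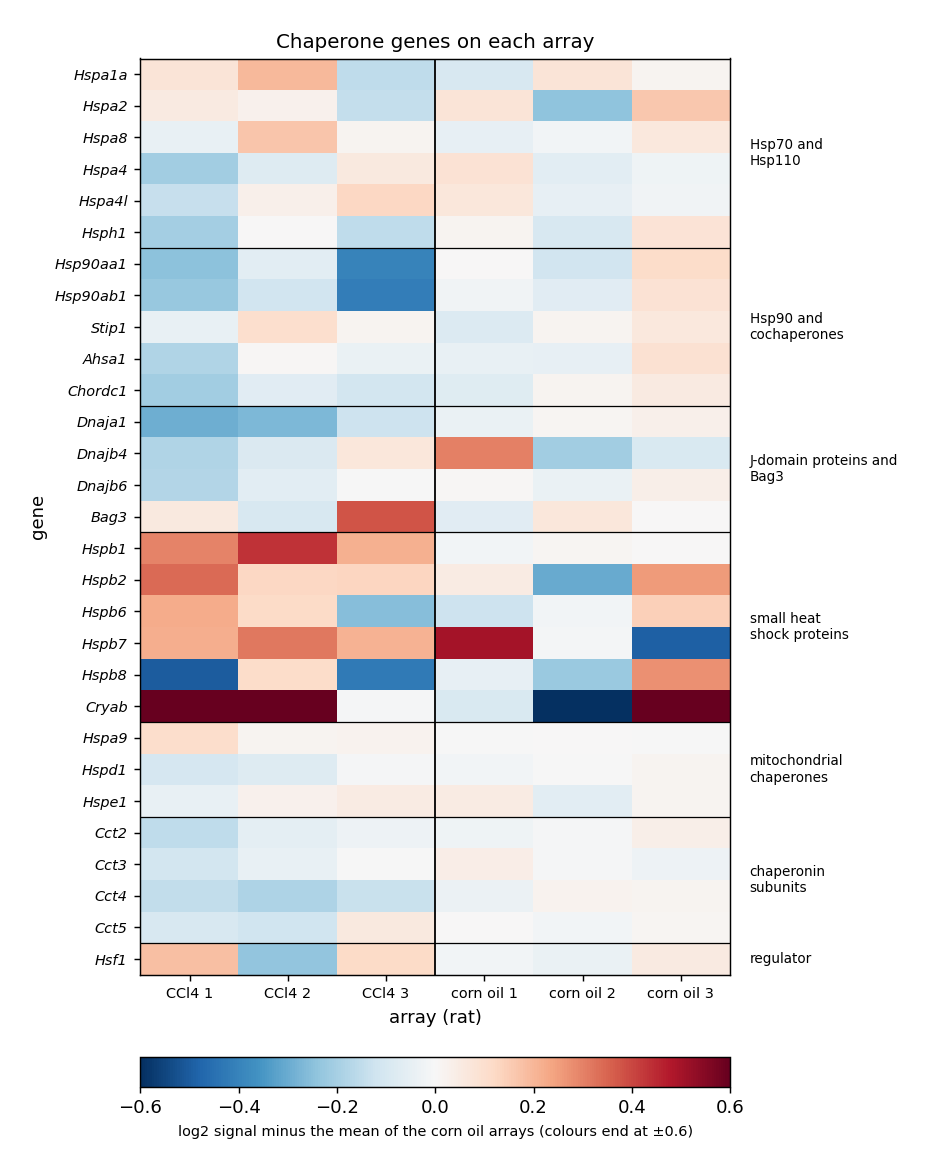
Difference of each array from the mean of the corn oil arrays (colour, log2 scale, ending at ±0.6) for the 29 tested chaperone genes (rows, by role) on the 3 carbon tetrachloride (CCl4) and 3 corn oil arrays (columns). Hspb1 is red and Dnaja1, Hsp90ab1 and Cct4 are blue on all 3 treated arrays, both Hsp90 genes are lowest on carbon tetrachloride replicate 3, and Cryab exceeds the colour range on 4 arrays.

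The mitochondrial chaperones differed little. Hspa9, or mortalin, which pulls proteins into the matrix, had 0.069, -0.023 and -0.017 after carbon tetrachloride and -0.039, -0.037 and -0.040 after corn oil. All treated values lay above the corn oil values, by a log2 fold change of only 0.05 ± 0.06 (adjusted p = 0.898). The corn oil arrays were almost equal for this gene, and treated replicate 1 lay furthest above them. Hspd1 and Hspe1, whose products Hsp60 and Hsp10 form the folding chamber of the matrix and whose genes are divergent neighbours, had -0.06 ± 0.06 and 0.01 ± 0.07. All 5 probes of Hspd1 were lower, from -0.13 to -0.0093, while the 2 probes of Hspe1 differed in direction.

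All 4 listed subunits of the chaperonin CCT, the ring that folds actin and tubulin, had lower signals after carbon tetrachloride. Cct4 had 1.53, 1.49 and 1.54 on the treated arrays, against 1.64, 1.70 and 1.69 on the corn oil arrays. The groups were tight and did not overlap, with a log2 fold change of -0.16 ± 0.06, a signal change of -10.2%, and a 95% interval of the log2 fold change from -0.30 to -0.0055 (limma adjusted p = 0.791). Cct2 had 4.003, 4.09 and 4.13 on the treated arrays, against 4.13, 4.15 and 4.19, again without overlap, by a log2 fold change of -0.08 ± 0.07 (adjusted p = 0.849). Treated replicate 3 and corn oil replicate 1 were almost equal for Cct2.

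Cct3 and Cct5 had -0.05 ± 0.07 and -0.05 ± 0.07, and their groups overlapped. Each of the 2 probes of Cct2, 3 probes of Cct3 and 2 probes of Cct5 was lower. With the subunits Tcp1, Cct6a, Cct7 and Cct8, 8 of 8 subunits of the ring had a log2 fold change below 0, from -0.17 for Cct6a to -0.017 for Cct7, with a median of -0.056. Of the 8, 1 had an unadjusted limma p under 0.05 and 0 passed after adjustment. Of all transcripts, 47.7% had a log2 fold change below 0 and 6.3% had such an unadjusted p. Subunits of a complex are commonly expressed together and are not independent of each other.

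Hsf1, the factor that switches on the inducible genes and is itself controlled mainly after translation, had 1.33, 0.91 and 1.26 after carbon tetrachloride and 1.13, 1.11 and 1.20 after corn oil. The treated values lay on both sides of the corn oil values, with a log2 fold change of 0.020 ± 0.12 (adjusted p = 0.987). Its sign turned under several alternatives.

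**Figure D4:**
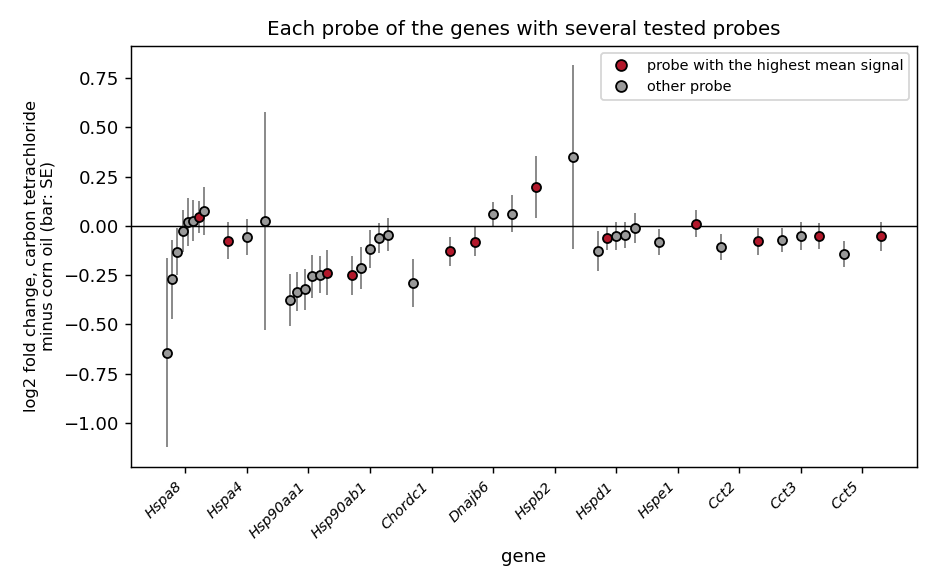
Log2 fold change, carbon tetrachloride minus corn oil (vertical axis), of every tested probe of the 12 chaperone genes with more than 1 tested probe (horizontal axis), with SE as bars. Filled red points are the probes with the highest mean signal. All probes of Hsp90aa1, Hsp90ab1, Chordc1, Hspd1, Cct2, Cct3 and Cct5 lie below 0 and both of Hspb2 above it, while those of Hspa8, Hspa4, Dnajb6 and Hspe1 lie on both sides.

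Of the 60 tested probes of chaperone genes, 8 (13.3%) had an unadjusted limma p under 0.05, against 6.40% of the 42400 probes tested in all, and 0 passed after adjustment. Of those 8 probes, 4 belong to Hsp90aa1. Of the 12 genes with several tested probes, 8 had all probes in 1 direction.

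Across the arrays the median difference of the 29 genes from the corn oil mean was -0.10, 0.0012 and -0.0023 on carbon tetrachloride replicates 1 to 3 and -0.014, -0.018 and 0.034 on corn oil replicates 1 to 3. Carbon tetrachloride replicate 1 held the lowest value of 11 of the 29 genes, more than any other array, and corn oil replicate 3 held the highest value of 12. The median of all transcripts lay between -0.0080 and 0.018 on the 6 arrays. Without carbon tetrachloride replicate 1 the median log2 fold change of the chaperone genes was -0.023.

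Other genes of the folding machinery, taken from lists chosen with earlier results of these data known, were examined beside the set. Of 35 tested cochaperones and heat shock factors outside the set, 17 were higher and 18 lower, with a median of -0.0012. Among the 35, 1 had an unadjusted limma p under 0.05, against 6.3% of all transcripts. That gene was Fkbp5, a cochaperone of the Hsp90 complex with steroid receptors that glucocorticoids induce. It had 3.02, 3.08 and 3.82 on the treated arrays, against 1.43, 2.28 and 2.69 on the corn oil arrays. Every treated value lay above every corn oil value, with a log2 fold change of 1.17 ± 0.37 (adjusted p = 0.768), larger than that of any gene in the set. Ppid, another immunophilin of that complex, had -0.17 ± 0.07, and its groups did not overlap. The groups did not overlap for 7 of the 35, against 12.8% of all transcripts.

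Of 10 tested genes outside the set that encode chaperonin or prefoldin subunits or, as Pdcl3 and Txndc9, phosducin-like cochaperones, 2 were higher and 8 lower, with a median of -0.025 and 0 at an unadjusted limma p under 0.05. Of these, Cct6a had -0.17 ± 0.08 and was the 1 gene of the 10 without overlap of the groups, and Cct8 had -0.06 ± 0.07. The 10 tested mitochondrial chaperones and proteases had 6 higher, 4 lower and a median of 0.022, with 0 at an unadjusted p under 0.05. Dnaja3, a mitochondrial J-domain protein that also stands in the cochaperone list, had 0.18 ± 0.12 and Htra2, a protease of the intermembrane space, 0.07 ± 0.06. The 15 tested chaperones of the endoplasmic reticulum had 5 higher, 10 lower and a median of -0.016. Sdf2l1, a partner of the reticulum's Hsp70, was the 1 gene of that list at an unadjusted limma p under 0.05, at -0.24 ± 0.09, and Dnajc3, a J-domain protein of the reticulum, had -0.12 ± 0.06. No gene of these 4 lists passed after adjustment, where the lowest limma adjusted p was 0.768. Of all transcripts, 47.7% were lower, 6.3% had an unadjusted limma p under 0.05 and 12.8% had groups without overlap.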

How the data were processed

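Cy3-labelled renal cortex RNA was measured on 1-colour arrays, per the labels' protocols. The deposited spot intensity came from Feature Extraction, per the file headers, version 10.7.1.1 (10.7 per the submitters' processing notes), with 0 or 1 flags per spot in other columns of the deposited files. The series' value table, an intensity deposited by the authors, differed from the processed signal by a constant divisor on each array (1015 to 1092), close to that array's 75th percentile. Its medians were 0.116, 0.115 and 0.111 for carbon tetrachloride and 0.118, 0.111 and 0.114 for corn oil, and its scale (linear), centring and direction are thus known.

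The log2 values used here are the processed signal relative to the 75th percentile of its array, without the 1439 control spots and spots with an outlier flag (0 to 25 per array). A probe was tested if well above background on all 3 arrays of a group. Accessions were named through RefSeq genes of GRCr8, which matched 28206 of 61537 probes. The test was limma 3.58.1 (R 4.3.3), two-sided. Each array is a separate rat, named as a biological replicate in the design text. The number of arrays limits precision. On simulated data for this comparison over 31169 transcripts, the test called 95% of the 100 set to a log2 change of 2 and 79% of the 100 set to 1. The simulated noise was normal, with each transcript's SD as moderated by limma, and the changed transcripts were picked at random. Both changes exceed that of every chaperone gene, the largest being 0.58. These rates therefore do not give the power for changes of the sizes seen here. In the measured data 263 transcripts had a log2 fold change beyond 1 in either direction, and 1 transcript passed. The simulated rates were not carried over to the measured data.

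The members and lists were chosen with earlier results of these data known. Values on every array are given for members with an unadjusted p under 0.05 or groups without overlap and for 10 members fixed by name, of which Hspa1b and Dnajb1 had no probe. From other chaperone lists the 2 genes of smallest p are named, while Bag3, Hspb2 and the single cell type markers named above were added after their values were seen. Marker lists not given above (endothelium, macrophage, adrenal, adipose, liver, red cell) had medians of 0.062, -0.056, -0.16, -0.042, 0.80 and -0.015, the liver list with 1 tested gene. Counts over genes well above background on every array were chosen after seeing the data. The normexp alternative used the median spot signal, as the files have no mean signal. The replicate numbers were checked for pairing: same-numbered arrays had deviations that correlated at -0.023, -0.097 and -0.079, so they were not treated as pairs.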

Additional observations from a re-analysis of the deposited data

How the results depend on the processing

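In each of 19 alternatives 0 chaperone genes passed, and the lowest limma adjusted p of any was 0.614. Blocking on slide, using slide 1 alone and leaving out treated replicate 3 are identical here. The 1 transcript past the threshold became 0 with normexp (either normalization), no filter, the filter on all 6 arrays, trend and robust fitting, the replicate block, the slide block and within slide 1, and ran from 0 to 2 without single arrays: 0 without treated replicate 2, treated replicate 3 or corn oil replicate 1, and 2 once corn oil replicate 3 was omitted. The number of chaperone genes at an unadjusted limma p under 0.05, 4 as reported, was 2 with normexp and quantile normalization, median scaling, no filter, the replicate block, the slide block and within slide 1. It was 5 with the mean of probes (3 of the 4, without Hsp90ab1, and Chordc1 and Hsp90aa1). It was also 5 with trend and robust fitting (the 4 with Hsp90aa1), and ran from 1 to 4 without single arrays, not always the same genes. The replicate block changed no call after adjustment of a chaperone gene. The median log2 fold change of the genes kept its sign throughout.

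Of the 29 genes, 17 kept their direction in all 19 alternatives, and Hspb7 in the 18 that tested it. Within slide 1 (and with the slide block) the sign turned for Bag3 (-0.020), Hsf1 (-0.028), Hspa2 (0.041), Hspa4l (-0.053) and Hspe1 (-0.010). With normexp and the 75th percentile, then with quantile normalization, it turned for Hsf1 (-0.017 and -0.0072), Hspa4l (-0.050 and -0.050) and Hspe1 (-0.051 and -0.053). With the mean of probes it turned for Dnajb6 (0.013), Hspa8 (-0.11) and Hspe1 (-0.035). Without single arrays the values that turned ran from -0.020 to 0.22 for Bag3, -0.17 to 0.086 for Dnajb4, -0.060 to 0.15 for Hsf1, -0.038 to 0.14 for Hspa1a, -0.14 to 0.060 for Hspa2, -0.053 to 0.079 for Hspa4l, -0.014 to 0.091 for Hspa8, -0.069 to 0.17 for Hspb6, -0.021 to 0.038 for Hspe1 and -0.017 to 0.058 for Stip1. Fitted alone, a setting chosen after seeing the data, other probes turned for Dnajb6 (0.062 and 0.058), Hspa4 (0.023), Hspa8 (-0.13, -0.64, -0.027 and -0.27) and Hspe1 (-0.080). The cause was not tested. Groups of 3 arrays limit what can be told from 0.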
